A study of Zea mays with 168 samples.

Results

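The 200 transcripts described here are the spots of a maize cDNA array on which inbred line 002 stood farthest from the other 3 inbred lines of the study. Of the spots, 11029 carried an identifier printed once, and leaving out the 200 of highest mean left 10829 candidates. For each candidate and each line, the deviation was the mean of that line minus the mean of the other 3 lines, on log2 levels relative to the median spot of the same sample. At 4429 candidates the largest deviation in size was that of 002x002, at 3037 that of 301x301, at 1816 that of 005x005 and at 1547 that of 250x250. The 200 largest of the 4429 were taken, 84 with higher and the other 58% with lower signal in 002x002. The members were thus chosen by the inbred levels, which are therefore described without a test.

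The study measured polyadenylated RNA of Zea mays primary roots. It covered 4 inbred lines and all 12 hybrids made by crossing them both ways, each at 3.5 days after germination. Seeds germinated in distilled water in a growth chamber and several roots of 1 genotype were pooled for each sample, per the labels' protocols, and the series text calls each sample an independent biological replicate. A genotype is written with both parent lines in the order of the labels, so that 002x250 and 250x002 are reciprocal hybrids and 002x002 is inbred line 002. Each slide carried 2 samples, one in Cy3 and one in Cy5. On the slides used, 002x002 had 16 samples. The hybrids with 002 had 7 samples of 002x005, 8 of 002x250, 8 of 002x301, 6 of 005x002, 8 of 250x002 and 9 of 301x002. The hybrids without 002 had 6 samples of 005x250, 7 of 005x301, 5 of 250x005, 8 of 250x301, 7 of 301x005 and 8 of 301x250. The other inbred lines had 14 samples of 005x005, 16 of 250x250 and 19 of 301x301. Which parent bore the seed is not named here.

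An inbred line carries the same allele on both copies of nearly every gene, while a hybrid carries an allele from each parent. A transcript whose level is set by the allele itself is therefore usually found between the parents in their hybrid, and one controlled by dominant factors near one of them. The primary root of a maize seedling is the first organ to emerge and is a common tissue for such comparisons, because hybrids show more vigorous early root growth than their parents. In pooled whole roots, fewer cells of a type and less RNA per cell cannot be told apart. The spots are named by accessions of expressed sequence tags. Of the 11442 identifiers on the array, 8 matched a gene of the RefSeq table used here and none of these is a member, so no role is given for any member. For 402 identifiers printed 2 or 3 times, the levels of the repeated spots correlated only weakly (Spearman's rho 0.23 across identifiers), which leaves it uncertain which identifier belongs to which spot.

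The slides set limits that touch every value. Of 84 slides, 8 were left out by the rule, which left 76 slides with 2 samples each. Both samples of a slide deviated together from the spot means, with a median rank correlation of 0.745 over 76 slides, against 0.021 for 781 pairs of samples of 1 genotype on separate slides. Every 002x002 sample shared its slide with a hybrid with 002, and no slide held a hybrid with 002 beside a hybrid without it. Slide numbers fell into 4 ranges, 0 to 61, 273 to 309, 471 to 561 and 916 to 999, which held 2, 1, 8 and 5 of the 002x002 samples. The range from 471 held no hybrid without 002. A range is known only as a range of slide numbers. Values of exactly 0 filled parts of 5 slides (292, 297, 561, 998 and 999), in both channels alike, and 7226 of these 7544 values lay in the first of the 8 columns of print blocks. On slide 999, which carried 301x002 and 301x301, 13.8% of tested spots were listed at 0, and the 10th and 90th percentiles of its values were 12.1 apart, against at most 5.07 on any other slide. The number of slides limits the precision of every value.

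Members with higher signal in 002x002 were mostly dim. Their mean level over all samples had a median of -0.14, and 53 of the 84 (63.1%) lay below the median spot, as did 51% of all candidates. In 52 of the 84 the signal passed the upper range of unnamed spots at the block edges in fewer than 50% of samples, and this held for 44.3% of candidates. Members with lower signal in 002x002 were bright, with a median mean level of 2.37, and 6 of them (5.2%) lay below the median spot. The deviations ran from 1 to 2.11 in the higher group (median 1.29) and from -1.88 to -1 in the lower group (median -1.12). The median SD of a member over the 16 samples of 002x002 was 1.69 in the higher group and 1.3 in the lower group, against 0.59 for all candidates. In both groups the median SD within the line was larger than the median size of the deviation that chose the members.

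AW011697 had the largest deviation, 2.11. Its log2 level in 002x002 ran from -0.72 over a median of 0.64 to 7.86 (n = 16), against -2.15, -0.77 and 3.08 in the 49 samples of the other lines. AI944131 followed with a deviation of 2.08, and its levels were -0.75, 0.56 and 7.55 in 002x002 and -1.91, -0.79 and 3.35 in the other lines. The groups overlapped in both cases, with most samples of all lines near or below the median spot and a few 002x002 samples far above it. AW065343 (deviation 1.99) and AI795411 (1.99) reached 6.37 and 7.75 in single 002x002 samples, from medians of 0.41 and 0.83. AW438253, the bright exception among the first 10, had -0.23, 4.66 and 9.28 in 002x002 and -1.27, 2.24 and 6.1 in the other lines. The rest of the first 10, AI861323, AI861347, AI987446, AW065586 and AI891416, had deviations between 1.77 and 1.92.

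Among members with lower signal, AW036871 had the largest deviation, -1.88. Its log2 level was -0.96, 1.37 and 5.8 (lowest, median and highest) in 002x002 and 0.67, 3.84 and 6.63 in the other lines. AW065348 (deviation -1.66) had -0.38, 1.83 and 3.8 in 002x002 and 0.37, 3.58 and 5.66 in the other lines. BG842080 (-1.61) had -0.06, 2.36 and 5.11 in 002x002 and 1.14, 3.97 and 5.63 in the other lines. These 3 transcripts lay lower in 002x002 in the median, and the ranges overlapped over most of their length. AW424600 (-1.57), AW042159 (-1.42), AW076205 (-1.42), AI942045 (-1.4) and AW355980 (-1.4) made up most of the rest of the first 10.

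The other 2 of the first 10, AW065246 (-1.49) and AW356012 (-1.39), were listed at 0 in 2 of the 16 samples of 002x002, so these 2 deviations include values listed at 0, and no other mean and no fold is given for them. In the samples not at 0, AW065246 had -1.36 as its lowest level in 002x002 and -1.64 in the other lines. In all, 22 members were listed at 0 in some sample, 11 in each group, and 21 of them lay in the first column of print blocks. The 11 in the higher group were listed at 0 on slides 292 and 999 and in no 002x002 sample, and 10 of the 11 in the lower group were listed at 0 on all 5 slides, including both 002x002 samples of slides 297 and 561. Slides 292 and 999 carried 250x250 and 301x301. The deviations of the 11 higher members, AI619112 among them, thus include values of 0 in the other lines. The rank that limits the list fell among close values. AI619112 and BM351249 just inside deviated by 1 and -0.999, while AI979447 and AI619087 just outside deviated by -0.998 and 0.996.

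The members' level differed between slide ranges and dyes. The median over the 84 higher members in a single 002x002 sample was 0.38 in the middle of 16 samples, with a range from -0.32 to 4.77. In the slide range from 471, the Cy5 samples of 002x002 had 1.32, 2.28 and 4.77 (lowest, median and highest, n = 5) and the Cy3 samples 0.32, 0.44 and 0.83 (n = 3). In the range from 916 the same line had -0.22, -0.2 and 0.04 in Cy5 (n = 3) and -0.21 and -0.04 in Cy3 (n = 2). Thus the line was far above the median spot in 1 range and near it in another.

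Cy5 samples of other genotypes in the range from 471 also had the higher members above the median spot. There the hybrids with 002 had 0.64, 1.72 and 4.6 in Cy5 (n = 6), and the 2 Cy5 samples of other lines had 1.02 and 2.32. In Cy3 the hybrids with 002 had -0.44, 0.42 and 1.44 (lowest, median and highest, n = 9), and the sample of another line had -0.79. Over all ranges, 15 samples had a median above 1 for the higher members. Of these, 14 lay in the range from 471 and 13 were in Cy5, while 6 were 002x002, 7 were hybrids with 002 and 2 were other lines. The lower members were low in many samples of the same range. Their median was below 1 in 13 samples, 11 of them in the range from 471. Of the 13, 5 were 002x002, 7 were hybrids with 002 and 1 was neither. The part of slide range and dye in the deviations was not tested.

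**Figure D1:**
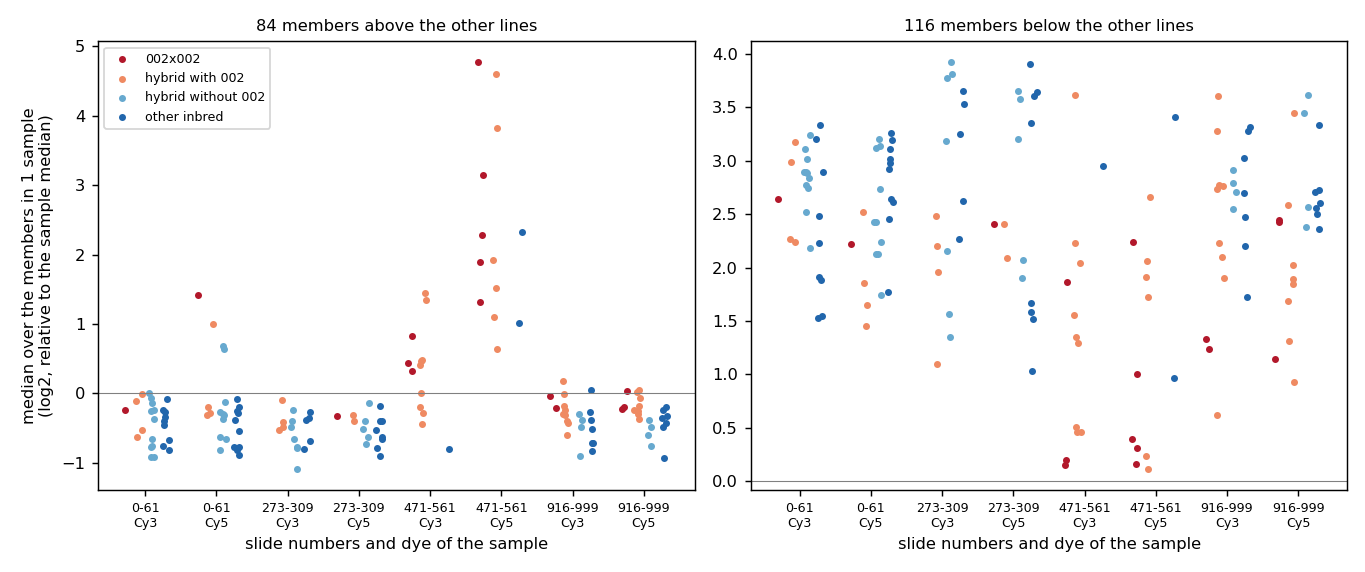
Median log2 level over the 84 higher members (left) and the lower members (right) in each sample, relative to the sample's median spot, by range of slide numbers and dye. Points are samples, coloured by class. The Cy5 samples of slides 471 to 561 reach 4.77 for the higher members, while the samples of slides 916 to 999 lie at or below 0.18.

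Within single ranges of slides the deviations kept their sign at most members but not their size. In the range from 0, 75 of 84 higher members and 80 lower members (69%) had the sign that chose them, with 2 samples of 002x002 against 19 of other lines. The range from 273, with 1 sample of 002x002, gave 54 and 80. The range from 471 gave 81 higher members and 91.4% of the lower ones. It had 8 samples of 002x002 against 3 samples of 2 other lines, and none of 005x005. The range from 916 gave 72 and 87.9%, with 5 samples of 002x002 against 14 of other lines. The median deviation of the higher members was 1.03, 0.16, 0.72 and 0.45 in these 4 ranges, and that of the lower members -0.43, -0.25, -1.07 and -0.87. Without the range from 471 the medians were 0.59 and -0.74. Since each range contributes to the deviation that chose the members, these counts are a description. Of all candidates, between 59.2% and 77.7% kept the sign of their own deviation within a range.

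The members were unevenly placed on the array. The array has 32 print blocks, and blocks 21, 22 and 26 held 12, 11 and 11 of the 84 higher members, although those 3 blocks held 1013 of 10829 candidates. Of the higher members, 25 (29.8%) were in the first spot column of their block, against 5.7% of candidates. Of the lower members 4 (3.4%) were in that column. Block 7 held 31 of the lower members, block 20 held 12 and block 5 held 9, and those 3 blocks held 1005 candidates. No higher member lay in 12 of the blocks, and no lower member in 10. Positions were read from the order of spots in the value table, and the part of position in the deviations was not tested.

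**Figure D2:**
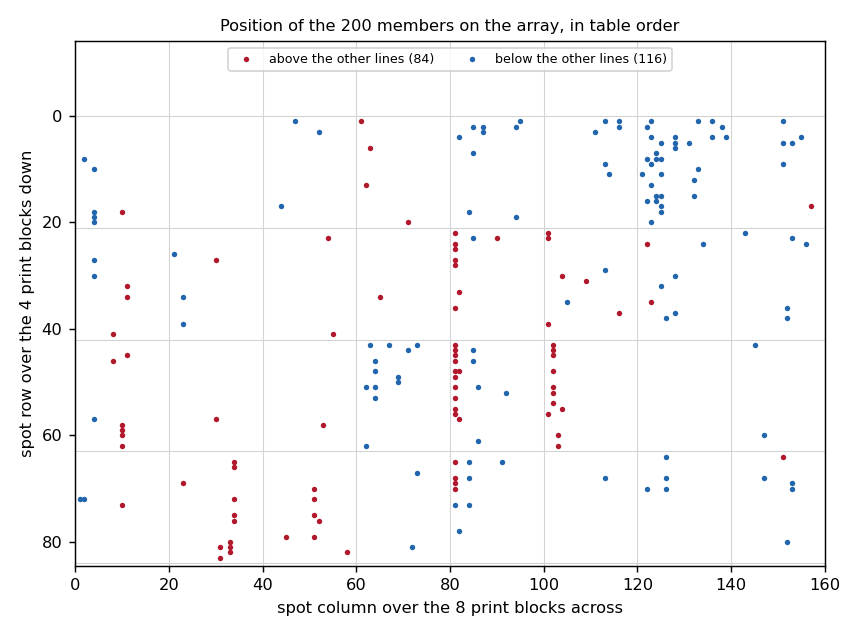
Position of the 200 members on the array, with spot columns across the 8 print blocks on the horizontal axis and spot rows over the 4 print blocks on the vertical axis, and grey lines between blocks. Red points are the 84 members with higher and blue points those with lower signal in 002x002. The densest group of blue points is the 31 in block 7, and 25 red points lie in the first spot column of a block.

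The spread of a sample's values moved with the members too. The distance between the 10th and 90th percentile had a median of 2.63 in 002x002, 2.82 in hybrids with 002, 3.25 in hybrids without 002 and 3.21 in the other lines. Across the samples of all 76 slides, which share slides and dyes, it had a rank correlation of -0.58 with the median of the higher members and 0.75 with that of the lower members. Within 002x002 alone these were 0.18 and 0.23 (n = 16), within hybrids with 002 they were -0.2 and 0.62 (n = 46), within hybrids without 002 -0.75 and 0.72 (n = 41) and within the other lines -0.66 and 0.77 (n = 49). Its part in the deviations was not tested.

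Hybrids were compared to ask whether members that set 002x002 apart also differ between hybrids with and without 002. The test used the 71 hybrid samples that shared no slide with 002x002, 30 with 002 and 41 without it, in limma's linear model with 12 genotype means, dye and slide range, and slide as a random block. Of these, 18 samples with 002 and 31 without it shared a slide with one of the other inbred lines, whose values entered the rule, so they are not wholly independent of it. Of 11836 spots tested, 1 was called at an adjusted p under 0.05 (limma, Benjamini-Hochberg), which is 0.00845%. It was a member, BM073177, and it rose. At an unadjusted p under 0.05, 13 of the 84 higher members were higher (7.12% of all spots tested) and 38 of the lower members were lower (11.7% of all spots tested).

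Of the 10 members of largest deviation in each direction, none passed the test. AW011697 had log2 levels of -1.21, -0.44 and 2.86 (lowest, median and highest, n = 30) in hybrids with 002 and -2.35, -0.97 and 1.09 (n = 41) in hybrids without 002, with a fitted difference of 0.33 ± 0.23 (SE, adjusted p = 0.43, limma). AW438253 had 0.86, 3.07 and 5.77 in hybrids with 002 and -1.15, 2.48 and 4.66 in hybrids without 002 (difference 0.8 ± 0.37, adjusted p = 0.23). The groups overlapped widely for both. Over these 10 higher members the differences ran from 0.01 for AI861323 to 0.8 for AW438253, all at or above 0.

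Among the lower members, AW036871 had 0.56, 3.77 and 5.73 in hybrids with 002 and 1.11, 3.94 and 6.76 in hybrids without 002, a difference of -0.38 ± 0.33 (SE, adjusted p = 0.54, limma). AW065348 had -0.4, 2.65 and 4.86 in hybrids with 002 and 1.29, 3.74 and 5.5 in hybrids without 002 (difference -0.94 ± 0.32, adjusted p = 0.15). The ranges overlapped again, and the medians of hybrids with 002 were the lower ones. The differences of the first 10 without values of 0 ran from -0.94 to -0.26 (AW355980). AW065246 was listed at 0 in 3 of 30 samples with 002 and in 0 of 41 without it, so no difference is given for it.

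By sign alone, 59 of the 84 higher members were higher and 94% of the lower members were lower in hybrids with 002. Of all candidates, 70.1% had the sign of their own inbred deviation. The median difference was 0.21 over the higher members and -0.46 over the lower members, against -0.02 over all spots tested, with a median residual SD of 0.96 for a member. Among the 178 members never listed at 0, 59 of 73 higher and 93.3% of lower members had that sign, as did 74.4% of such candidates. Without slides 292, 998 and 999, the slides of the test with many values of 0, 69 of 84 higher and 94.8% of lower members had it, as did 73.8% of candidates, and BM073177 was again the only spot called (0.00845%).

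On the 11 slides that carried hybrids in both channels, no inbred sample was present, so none of the values entered a deviation. There, with 12 samples with 002 and 10 without it, 71 of the 84 higher members were higher and 73 lower members (62.9%) were lower, against 55.5% of candidates with the sign of their deviation. This fit had no slide range term. Its samples with 002 lay in the ranges from 273, 471 and 916, and those without 002 in the ranges from 0 and 273. Only the range from 273 held both, on slides 295 and 301. These differences therefore can hardly be told apart from slide range. The median difference was 0.49 over the higher members, -0.19 over the lower members and 0.06 over all spots tested. In that fit 15 spots were called (0.127%), none of them a member.

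**Figure D3:**
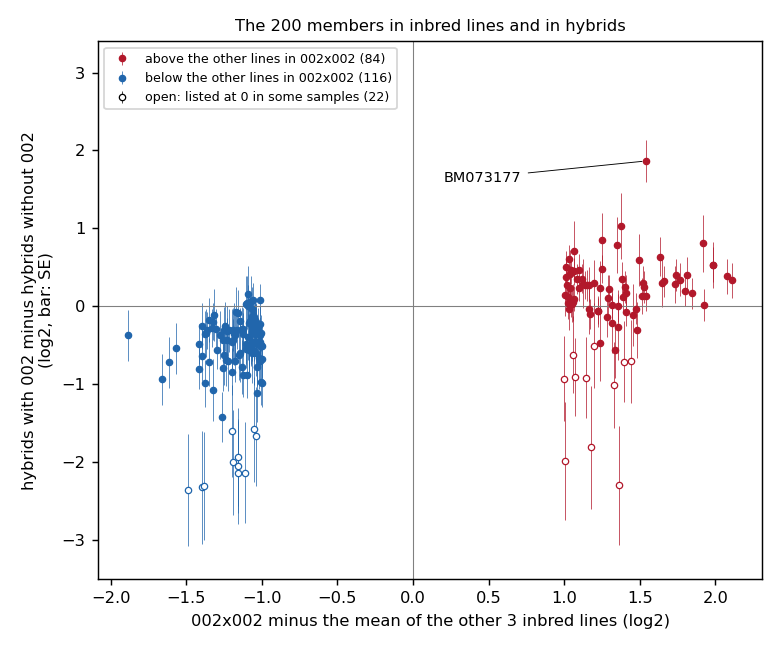
Difference between hybrids with and without 002 (log2, vertical axis, bar: SE) against the deviation of 002x002 from the other inbred lines (log2, horizontal axis) for the 200 members. Red points are the 84 higher and blue points the lower members, and open points the 22 listed at 0 in some samples. BM073177 stands at 1.86 on the vertical axis.

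BM073177 was the one member called. It lies in block 27, ranked 21st by deviation, and its mean level over all samples was 1. In 002x002 its log2 level ran from 0.01 over a median of 1.94 to 3.39 (n = 16), against -1.67, 0.27 and 2.11 in the other lines (n = 49). In the hybrids with 002 it was -0.38, 2.2 and 3.54 (n = 46), and in the hybrids without 002 it was -0.73, 0.25 and 2.74 (n = 41). Over all slides the median of hybrids with 002 was near that of line 002, and the levels of hybrids with and without 002 overlapped. In the slide ranges from 0, 273, 471 and 916, the medians were 2.39, 3.12, 2.19 and 0.66 in 002x002. In hybrids with 002 they were 1.99, 2.93, 2.09 and 2.18. The range from 916 thus had line 002 (n = 5) well below its hybrids (n = 17). Of the 46 samples with 002, 42 lay above the median of the hybrids without it, and 1 of the 41 samples without 002 lay above the median of those with it.

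Across the genotypes, the mean level of BM073177 was highest in 250x002, at 2.79 ± 0.78 (SD, n = 8). It was 2.39 ± 0.66 in 005x002 (n = 6), 2.22 ± 0.52 in 002x005 (n = 7), 1.91 ± 1.05 in 002x250 (n = 8), 1.77 ± 1.24 in 002x301 (n = 8) and 1.28 ± 1.19 in 301x002 (n = 9). Line 002x002 stood within this order at 1.82 ± 1.22 (n = 16). Neighbours in the order differed by less than their SD. In 301x002 the highest levels, 3.414 and 2.605, were those of slides 998 and 999, which had many values of 0. Its other samples ran from -0.383 to 1.553.

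The genotypes without 002 all averaged below 1. The hybrid 005x301 had 0.84 ± 0.48 (n = 7), 301x005 had 0.72 ± 0.83 (n = 7), 301x250 had 0.41 ± 0.99 (n = 8), 250x301 had 0.4 ± 0.3 (n = 8), 005x250 had 0.33 ± 0.38 (n = 6) and 250x005 had -0.31 ± 0.35 (n = 5). Among the lines, 250x250 averaged 0.53 ± 0.72 (n = 16), 005x005 0.42 ± 0.87 (n = 14) and 301x301 -0.1 ± 0.88 (n = 19). Its signal passed the level of the unnamed spots in 39 of 46 samples of hybrids with 002 and in 30 of 41 of those without it.

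**Figure D4:**
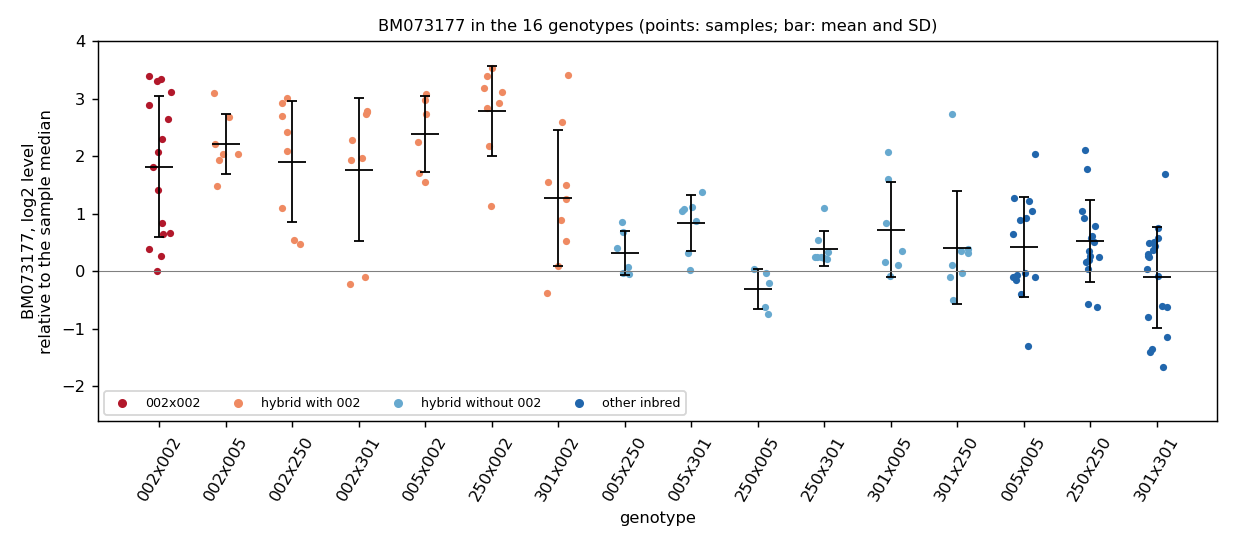
Log2 level of BM073177 relative to the sample's median spot in each sample (points) of the 16 genotypes, with mean and SD (bars). The 6 hybrids with 002 average between 1.28 and 2.79, and the 6 hybrids without 002 between -0.31 and 0.84. The lowest of the former, 301x002, includes slides 998 and 999 (3.414 and 2.605), and its other samples reach at most 1.553.

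In the fit, BM073177 was 1.86 ± 0.27 (SE) higher on the log2 scale in hybrids with 002 than in hybrids without it (adjusted p = 6.4e-05, limma). With each of 60 slides left out in turn it stayed between 1.76 and 1.97 and was called each time, and without slides 292, 998 and 999 it was 1.64 ± 0.26 (adjusted p = 6e-04, limma). On the slides with hybrids in both channels, where the spot had levels of 1.14, 2.24 and 3.13 with 002 and -0.62, 0.18 and 2.74 without it, the difference was 1.7 ± 0.53 (unadjusted p = 0.006, adjusted p = 0.7, limma). The fit of these slides had no slide range term, and only the range from 273 held hybrids both with and without 002. This spot alone was singled out by the first fit, so its unadjusted p on these slides, which are part of that fit, is no independent test.

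No slide held both kinds of hybrid, so the samples of a slide compare a hybrid with an inbred line. On 18 slides that carried a hybrid with 002 beside its other parent, BM073177 was higher in the hybrid on all 18, by a median of 1.76 (range 0.32 to 4.76). On 16 slides that carried a hybrid with 002 beside 002x002 it was higher in the hybrid on 7, with a median difference of -0.11 (range -2.85 to 2.08). On 31 slides with a hybrid without 002 beside one of its parents it was higher in the hybrid on 17, with a median of 0.08. The inbred values on these slides entered the rule, so these are descriptions.

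The members as groups were described within slides in the same way. Over the same 18 slides, the median difference between a hybrid with 002 and its other parent, taken over the 84 higher members, was above 0 on 8, with a median of -0.03 (range -1.54 to 1.47). For the lower members the difference was above 0 on 7, with a median of -0.03 (range -0.38 to 0.38). Against 002x002 on the same slide, the medians over 16 slides were -0.04 for the higher and 0.01 for the lower members. These medians mix both dye orientations. On the 34 slides that carried a hybrid with 002 beside an inbred sample, the median of the higher members was higher in the Cy5 than in the Cy3 sample on 29. In the slide range from 471 it was higher in Cy5 on 11 of 11, by a median of 1.4 (range 0.09 to 2.09), whether the hybrid or the inbred line was in Cy5. The inbred values entered the rule, and the part of dye was not tested.

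The spots printed next to BM073177 were not members. BM073198, printed 1 row on, was 0.87 ± 0.23 (SE) higher in hybrids with 002 (adjusted p = 0.11, limma), BM074838, 1 column before, 0.46 ± 0.19 (adjusted p = 0.2) and BM073112, 1 row before, 0.4 ± 0.22 (adjusted p = 0.3). An unnamed spot 1 column on, which has no identifier and was not in the fit, was 0.5 higher in hybrids with 002 as a plain difference of means, against 0.84, 0.53 and 0.38 in the same measure for these 3. The mean levels of BM073198 had a Pearson correlation of 0.93 with those of BM073177 over the 12 hybrids, the highest of all spots tested. Next came BM073002 (0.92), BM333805 (0.91), AW927781 (0.88) and BG841125 (0.87). BM073002 and AW927781 lie in the same print block as BM073177, the former also in its spot column, while BM333805 and BG841125 lie in other blocks. The neighbours were named because of their position, after their values were seen. With the medians of print blocks subtracted, BM073177 itself was 1.61 ± 0.25 higher (adjusted p = 0.00027, limma). The part of the neighbours' signal in its difference was not tested.

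**Figure D5:**
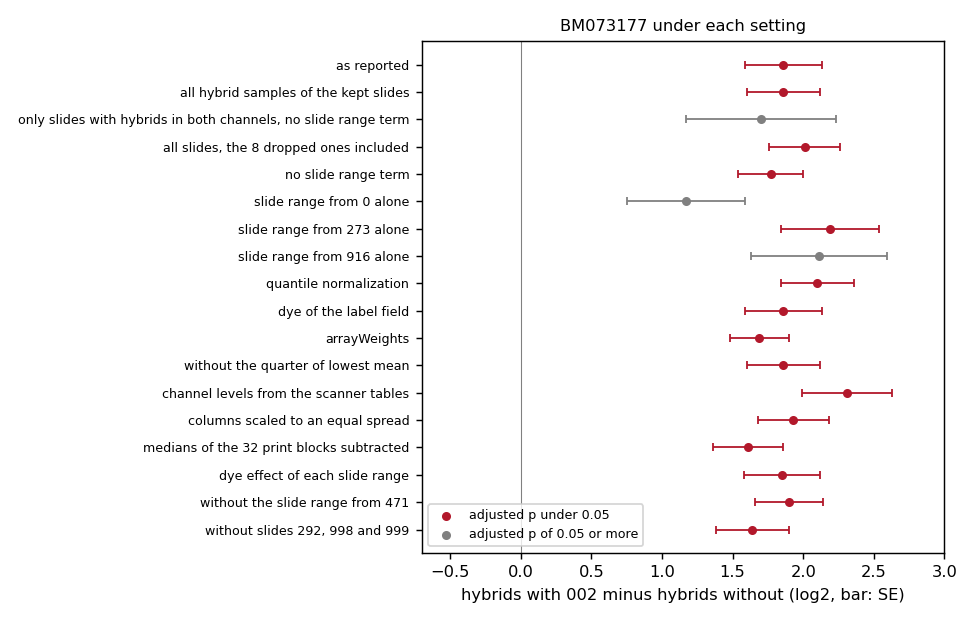
Difference of BM073177 between hybrids with and without 002 (log2, horizontal axis, bar: SE) under each setting (vertical axis). Red points have an adjusted p under 0.05. All settings give a difference between 1.17 and 2.31, and 3 of them with few samples miss the threshold.

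The 3 partner lines were then compared, each pair of reciprocal hybrids against the 6 hybrids without 002, which the 3 comparisons share. BM073177 was 1.91 ± 0.4 (SE) higher with partner 005 (adjusted p = 0.14, limma; 0.035 and the 1 spot called, 0.00845%, without slides 292, 998 and 999), 2.17 ± 0.37 with 250 (adjusted p = 0.003) and 1.51 ± 0.43 with 301 (adjusted p = 0.044). Without slide 999 the value with 301 was 1.35 ± 0.44 (adjusted p = 0.22, limma), and without slides 292, 998 and 999 it was 0.96 ± 0.43 (adjusted p = 0.44). The moderated F test of a difference among the partners gave p = 0.42 for this spot (adjusted p = 0.8, limma). Over all spots it called 0 (0%) with limma, while 1022 (8.63%) had an unadjusted p under 0.05, 28 of them members.

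With partner 250, 99.1% of the lower members were lower and 68 of 84 higher members were higher, and 75.4% of candidates had the sign of their deviation. The median difference was -0.89 over the lower members and 0.37 over the higher members. Of the 6 spots called (0.0507%), BM073177 was the only member. Without slides 292, 998 and 999, 192 spots were called (1.62%), 17 of them members. Of these, 16 fell (1.31% of all spots tested) and 1, BM073177, rose (0.313%). Without slide 999 alone, 33 spots were called (0.279%), 6 of them members. On the slides with hybrids in both channels, fitted without a slide range term, 3 members fell (1.5% of all spots tested). Only the range from 273 held hybrids both with and without 002 there.

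The 16 members all lay in the neighbouring blocks 5, 6 and 7, with 11 in block 7. AW065348 had -0.4, 1.38 and 3.1 in 002x250 and 0.03, 1.93 and 3.33 in 250x002 (lowest, median and highest, n = 8 each), against 1.29, 3.74 and 5.5 in hybrids without 002 (n = 41). The fit without these slides gave it a log2 difference of -2 ± 0.44 (SE, adjusted p = 0.019, limma), and AW076205 had -1.6 ± 0.36 (adjusted p = 0.019). With all slides of the test, their differences were -1.82 ± 0.44 (adjusted p = 0.067, limma) and -1.49 ± 0.36 (adjusted p = 0.067). Columns scaled to an equal spread, print block medians subtracted and quantile normalization were run only with all slides of the test. BM073177 was the 1 member called with partner 250 in each, as it was without them. These settings therefore cannot bear on the 16 calls. Samples of 002x250 (median 2.77) and 250x002 (2.74) had a narrower spread than hybrids without 002 (3.25). The spread moves with these differences, and its part was not tested.

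With partner 005, no spot was called by limma (0%, and 150 had an unadjusted p under 0.05), and 40 of 84 higher and 95 lower members (81.9%) had the sign of their deviation, against 61.3% of candidates. With partner 301, 330 spots were called (2.79%), 10 of them members, with 9 lower (2.42% of all spots tested) and BM073177 higher (0.363%). Of the 9, 8 were among the members listed at 0 on slides 998 and 999, and the exception was AW120118, with -2.27 ± 0.52 (SE, adjusted p = 0.025, limma). Its levels in 301x002 were -1.22, 1.6 and 3.7 (lowest, median and highest, n = 9), against 0.65, 2.96 and 3.89 in hybrids without 002. Without slide 999 it had -1.95 ± 0.51 (adjusted p = 0.12, limma), and BM073177 and all other members lost the call, with 1 spot called (0.00845%). Without slides 292, 998 and 999, 6 spots were called (0.0507%), none of them a member. With each of 60 slides left out in turn, the number of members called with partner 301 changed as well, so it depended on single slides.

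Reciprocal hybrids with 002 carry the same parents, and only the order of the parents differs. With 002 named first minus 002 named second, 17 spots were called (0.144%), 2 of them members, both lower (0.0338%). AI944047 had -0.57 ± 0.13 (SE, adjusted p = 0.048, limma) and AI944071 had -0.51 ± 0.12 (adjusted p = 0.048), both members with higher signal in 002x002 and printed 1 row apart in block 22. Without slide 999 both lost the call, at -0.58 ± 0.13 (adjusted p = 0.052) and -0.51 ± 0.12 (adjusted p = 0.06), and no spot was called, with 1231 at an unadjusted p under 0.05. With each of 60 slides left out in turn, 0 to 11 members and 0 to 3.65% of all spots tested were called. These 2 calls thus depend on single slides. BM073177 had 0.18 ± 0.17 (adjusted p = 0.83, limma). With arrayWeights it had 0.4 ± 0.12 and was called (adjusted p = 0.032, limma), and in the slide range from 0 alone it had -0.44 ± 0.72 (adjusted p = 0.95).

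The members were finally described along the other lines, in the same fit and with the same samples. The median difference between hybrids with and without a line, turned so that a positive value has the sign of the 002 deviation, was 0.34 along 002, -0.11 along 005, 0.05 along 250 and -0.31 along 301 over the 200 members. Over all candidates these were 0.14, -0.02, 0.00 and -0.13. Members with lower signal in 002x002 had a median of 0.44 along 301, and 11 of them were lower there, while 31 of the 84 higher members were higher. Of candidates, 28.6% had the sign of their 002 deviation along 301. No member was called along 005, 250 or 301 (35, 0 and 1 spots called in all, 0.296%, 0% and 0.00845%). Each hybrid carries 2 lines, so the 4 contrasts share all samples and are not separate evidence.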

How the data were processed

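The authors deposited a value table of log2 levels, 1 column per sample, made from 1 of several scans of each channel after normalization, per the deposited notes; how they were normalized was not stated in what was read. They also deposited scanner tables of spot intensity, 1 column per scan, used here as an alternative (991 scans, 14 left out, limma normexp with offset 50 and loess with span 0.3; 18 scanner columns that match no sample were not used). In the scanner tables, intensities of print blocks and of spots within them stood in another order than in the value table. They were turned to its order by a match of their values (median rank correlation 0.9973 after it), on which the scanner levels rest. The identifiers come from a scanner table and were joined to the value table by spot number, without this turn. Which identifier belongs to which spot is therefore uncertain, for BM073177 too. Here, the median of each column was subtracted from the log2 values. The members and lists were chosen with earlier results of these data known. Left out of the tests were 190 spots without identifier, 132 spots of identifiers printed 12 times and 2 with a missing value, which left 11836. Genotype means, dye and slide range were fitted with limma 3.58.1 in R 4.3.3, with slide as a random block (correlation 0.872), moderated variances and Benjamini-Hochberg adjustment over all spots tested, and called at 0.05. The dye was taken from the titles. Labels give each sample as a separate pool of roots. Named are the 10 members of largest deviation in each direction, members called in a test (up to 10 per direction), members with a gene symbol (none) and ranks 199 to 202. The fit was tested on simulated data. Tables were made with Python 3 and pandas.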

Additional observations from a re-analysis of the deposited data

Results flagged for a closer look

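A sample lay far from the others of its hybrid in 6 of 48 groups examined (12 hybrids and 4 measures, by the 95% limit of Dixon's test), and chance gives about 1 in 20. The 2 samples of slide 37 share a slide, so their values are not separate. BM073177 stood at 2.74 in the 301x250 sample of slide 37 (group median 0.22) and at 1.1 in the 250x301 sample of the same slide (group median 0.25). The median of the 84 higher members was 4.6 in a 002x250 sample of slide 506 in Cy5 (group median -0.05), 0.68 in a 005x250 sample of slide 34 (group median -0.28) and 0.64 in a 250x301 sample of slide 31 (group median -0.64). The spread between the 10th and 90th percentile was 12.1 in the 301x002 sample of slide 999 (group median 2.8).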

How the results depend on the processing

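BM073177 kept its direction under every setting run, from 1.17 to 2.31, and was called under all but 3, each with fewer samples: slides with hybrids in both channels alone and no range term (1.7), the slide range from 0 alone (1.17) and the range from 916 alone (2.11). In the range from 273 all hybrids with 002 had partner 250 and those without it were 005 with 301, so line and partner cannot be told apart there. The share of spots called for 002, 0.00845% as reported, was 0.0169% with all hybrid samples, 0.127% on slides with hybrids alone, 0.853% with the 8 left-out slides, 0.82% with no range term, 0.0507%, 1.76% and 0.0422% in the ranges from 0, 273 and 916 alone, 0.262% with quantile normalization, 8.93% with arrayWeights, 0.355% with scanner levels, 0.0253% with scaled spread, 0.169% with block medians, and 0.00845% to 0.0253% with a slide left out. For 002 named first against second, 0.144% as reported, it was 0.00845% with all hybrid samples, with no range term and without slides 292, 998 and 999. It was 0 on slides with hybrids alone, with the 8 slides, in each of the 3 ranges alone, without the dimmest spots and without the range from 471, 0.0169% with quantile normalization, 0.0845% with the other dye labels, 6.76% with arrayWeights, 0.0422% with scanner levels and 0.0591% with block medians. With a slide left out it ran from 0 (slide 41 among others) to 3.65% (slide 995), and for 25 of 60 slides it stayed within 1.5 times. For dependence on the partner line, 0 as reported, it was 0.00845% with all hybrid samples, 1.07% on slides with hybrids alone, 0.135% and 0.0507% in the ranges from 0 and 916, 8.41% with arrayWeights, and 0 to 0.00845% with a slide left out. Of the 200 members, 34% were chosen again with values centred within ranges, 65% with scanner levels, 52.5% with scaled spread, 60.5% with block medians, 30% without the range from 471, and 73.5% (slide 561) to 93.5% with a 002x002 sample left out, and BM073177 was chosen in each case. Scaled spread, block medians, a dye effect for each range, and leaving out the range from 471, slide 999 (for the choice of members), values of 0 or slides 292, 998 and 999 were chosen after seeing the data. The causes of these changes were not tested. The range from 471 alone could not be fitted. No replicate number is shared between genotypes, and no slide held a hybrid with 002 beside a hybrid without it. Hybrids with and without 002 could therefore not be paired, while a hybrid and an inbred line on the same slide were compared as pairs. The samples of a slide were kept together as a block in the fits.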
